A study of Homo sapiens with 6 samples.

Results

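Chemokine and cytokine signalling genes were examined in NCI-H295A, an established line of human adrenocortical carcinoma cells that makes steroids. Cells without treatment (3 control arrays) were compared with cells exposed to 1 mM 8-Br-cAMP over 18 h (3 arrays), a cell-permeable analogue of cAMP, the second messenger of the pituitary hormone ACTH in the adrenal cortex. The labels call the treatment cAMP and give 1 line, 1 dose and 1 time, with no vehicle control named, so the data describe a carcinoma line at a single point. The 9 genes are CXCR4, CXCL12, CCL22, IL7R, IL6R, IL6ST, IL18, IL1R1 and IL1R2. They were read from all 19 probe sets whose platform annotation gives 1 of these symbols alone, of 22215 probe sets on the array. The genes were proposed with this same contrast in view, CXCR4 and CCL22 for their size, so their differences are given as a description, with no test.

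Chemokines are small secreted proteins that steer cell movement by way of receptors coupled to inhibitory G proteins. CXCL12 is the ligand of CXCR4, a pair known for holding cells in bone marrow and for the spread of tumours. CCL22 draws in regulatory T cells through the receptor CCR4. Interleukin receptors of the IL6R and IL7R kind pass their signal to JAK kinases and STAT factors, while the receptors for interleukin 1 and interleukin 18 act through MYD88 and NF-kB. These systems are best known in white blood cells, and cytokines are also made in the adrenal gland, where they can act on steroid output.

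The arrays numbered 1 stood apart in both groups, and this touches most values below. The actin control's 3'/5' signal ratio, which climbs as RNA breaks down, was 38.8 for 8-Br-cAMP 1 and 5.72 for control 1, and it lay between 1.93 and 2.41 for the remaining arrays. Over kept probe sets, defined below, the log2 signal of control 1 correlated at 0.828 and 0.833 with its group. That of 8-Br-cAMP 1 correlated at 0.776 and 0.779 with its own, where the arrays numbered 2 and 3 reached 0.961 (controls) and 0.980 (treated). Control 1 and 8-Br-cAMP 1 correlated at 0.883 with each other. A probe set is called kept if its log2 signal averaged over 5.51 (a signal of 45.5), the 40th percentile of all. All 11 adrenocortical markers on the array were kept, with a summed signal of 8951.2 to 31345.5 on controls and 29249.6 to 63389 after 8-Br-cAMP. Of 11 lymphocyte markers 3 were kept and of 11 myeloid markers 2, with summed signals of 263.8 to 381.2 and 261.7 to 440.9 on controls, and of 199.1 to 373.6 and 276.2 to 477.4 after 8-Br-cAMP. The white cell genes PTPRC (4.2 to 27.8), CD3D (3.1 to 29.4) and LYZ (0.6 to 13.5) lay below the filter level on every array. Other white cell markers that were not kept passed that level on at least 1 array. Their highest signals were 95.7 for CD79B, 46.7 for CD79A, 46.8 for CD247, 60.8 for CD14, 76.9 for CSF1R and 96.3 for MS4A6A. The 5 kept white cell markers were CD3E (39.3 to 122.9), CD2 (29.9 to 87.5), MS4A1 (51.6 to 74.9), ITGAM (42.3 to 105.2) and FCER1G (49.9 to 117). Endothelial markers summed to 388.9 to 430.7 on controls and 403.1 to 649.3 after 8-Br-cAMP, with 3 of 12 kept, and fibroblast markers to 930.3 to 1788.7 and 685 to 884.1, with 7 of 12 kept. In each of these lists limma with the replicate block, a fit with a term for sample number, called 1 gene. It also called 6 of the 11 adrenocortical markers, all higher, against 3.68% of all genes with a kept probe set. VWF, an endothelial clotting factor, read 13.2, 17.8 and 123.8 on controls and 292.3, 224.5 and 289.2 after 8-Br-cAMP (log2 difference 3.12, adjusted p = 0.0493 in limma with the block, 0.212 without). COL3A1, a fibrillar collagen, read 879.2, 393.9 and 417.3 on controls and 227.6, 194.6 and 198.6 after 8-Br-cAMP (-1.35, adjusted p = 0.0485 in limma with the block, 0.231 without). The part of other cell types in the values below was not tested.

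The transcripts with the largest differences were IL7R, CCL22 and CXCR4, at 58.5-fold, 39.2-fold and 37.2-fold on the mean log2 scale. The controls numbered 2 and 3 of CCL22 and IL7R lay near or below the floor of 13.5, and those of CXCR4 (36 and 23.5) below the filter level. All 3 folds are therefore imprecise, and the 3 genes have no firm order. With a pseudocount of 16 the log2 differences were 4.71 for IL7R, 4.26 for CCL22 and 4.78 for CXCR4. The brighter IL6R probe set and that of IL18 were also higher on every treated array than on any control. The dimmer IL6R probe set, the shared receptor chain IL6ST and the CXCR4 ligand CXCL12 overlapped between the groups. Of the 19 probe sets 15 had the higher mean after 8-Br-cAMP, and 8, in 6 genes, had no overlap between groups with the treated signals higher, against 4.79% of all probe sets on the array. No probe set of these genes had the reverse order, against 10.3% of all. Of the 14 kept probe sets 7 had no overlap with treated signals higher, against 6.02% of all kept ones. Since the genes were proposed with these differences known, nothing is read from these shares.

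**Figure D1:**
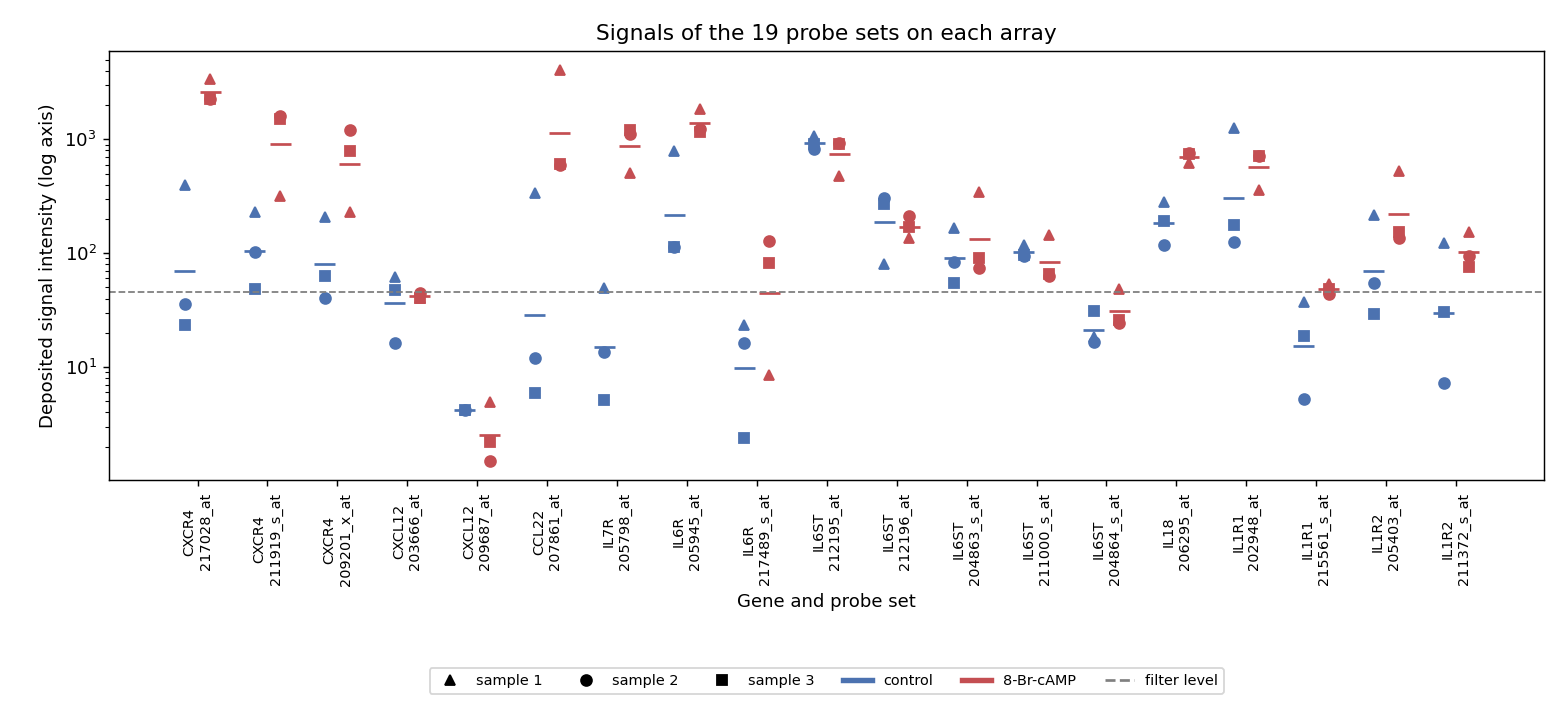
Deposited signal intensity (log axis) of the 19 probe sets on each of the 6 arrays, control in blue and 8-Br-cAMP in red, with symbols for the sample number and short bars at the group means of log2 signal (n = 3). The dashed line is the filter level of 45.5. The brightest CXCR4 probe set, CCL22 and IL7R lie below that line on controls 2 and 3 and far above it on the treated arrays. The IL6ST probe sets overlap between groups.

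CXCR4 encodes the receptor through which CXCL12 guides cells. Its brightest probe set had signals of 400.4, 36 and 23.5 on controls 1, 2 and 3, and of 3354.4, 2280.6 and 2280.8 on the treated arrays. The groups did not overlap, control 1 lay far above the other controls, and the treated arrays were alike. Controls 2 and 3 lay below the filter level, so folds against them are imprecise. The group means were 6.12 ± 2.21 and 11.34 ± 0.32 in log2 signal (SD, n = 3), a difference of 5.22. By same-numbered pair the difference was 3.07, 5.99 and 6.60 on the log2 scale.

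The other CXCR4 probe sets gave the same direction with a smaller size, and differed from the brightest in pair 1. The next in brightness had signals of 230.3, 102.6 and 48.9 on controls and 319.5, 1607.7 and 1493 after 8-Br-cAMP. The dimmest had 207.2, 40.3 and 63.3 on controls and 231.3, 1213.7 and 786.8 after 8-Br-cAMP. Neither overlapped between groups, but both were lowest on 8-Br-cAMP 1 among the treated arrays. The brightest probe set was highest there. Their mean log2 differences were 3.12 and 2.90, with only 0.47 and 0.16 in pair 1, against 3.97 and 4.93 in pairs 2 and 3 for the next in brightness and 4.91 and 3.64 for the dimmest. The low values of both fell on the array with the actin ratio of 38.8, and the part of RNA integrity in them was not tested. With both number 1 arrays left out, the 3 probe sets differed by 6.29, 4.45 and 4.27.

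The promoter of CXCR4 is shown because its transcript was among those that differed most, together with those of CCL22 and IL7R. Each is the stretch of 250 bases before the first listed start, on the gene's strand, from RefSeq on GRCh38.p14. CXCR4 lies at chr2:136118150-136118399 on the minus strand, CCL22 at chr16:57358533-57358782 on the plus strand and IL7R at chr5:35856641-35856890 on the plus strand. Capitals mark a match to any of the motifs searched.
CXCR4: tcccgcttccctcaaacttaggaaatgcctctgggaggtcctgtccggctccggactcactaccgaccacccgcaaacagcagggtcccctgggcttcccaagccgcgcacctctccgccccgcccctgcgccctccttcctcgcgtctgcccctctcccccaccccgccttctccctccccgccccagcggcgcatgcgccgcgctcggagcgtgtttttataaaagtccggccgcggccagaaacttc
CCL22: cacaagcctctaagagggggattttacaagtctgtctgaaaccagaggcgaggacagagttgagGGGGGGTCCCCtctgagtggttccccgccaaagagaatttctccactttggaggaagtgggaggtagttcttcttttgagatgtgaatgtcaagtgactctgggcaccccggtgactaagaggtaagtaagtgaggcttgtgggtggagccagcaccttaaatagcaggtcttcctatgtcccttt
IL7R: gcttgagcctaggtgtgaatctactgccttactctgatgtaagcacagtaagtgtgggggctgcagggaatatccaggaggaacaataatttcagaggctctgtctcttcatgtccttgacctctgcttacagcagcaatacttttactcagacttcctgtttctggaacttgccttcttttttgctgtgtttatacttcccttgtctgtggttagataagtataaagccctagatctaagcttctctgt

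The motifs searched on both strands were the cAMP response element TGACGTCA, its shorter core TGACG, which the full element contains, the AP-1 site TGANTCA and the NF-kB site by its usual consensus. Over all 35116 listed windows of 250 bases, the full element was in 1.65%, the core in 21.2%, the AP-1 site in 6.57% and the NF-kB site in 9.96%. Of the 9 genes 8 had an entry, with 14 start sites in all, and IL18 had none. None of the 14 windows held the full element or the AP-1 site. The core was found before the second listed start of CXCR4, 249 to 245 bases upstream, and in CXCL12, 114 to 110 bases upstream. The NF-kB consensus matched in CCL22 at overlapping positions, from 186 to 177 and from 185 to 176 bases before the start. It also matched in IL6ST, 53 to 44 bases upstream, and before the second listed start of IL1R2, 125 to 116 bases upstream. The CXCR4 and IL7R windows printed above held no match, which says only that these letters are not there. The bases differ in make-up as well, with 68% G and C for CXCR4, 51.2% for CCL22 and 43.6% for IL7R, against a median of 58% over all windows.

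CXCL12, the ligand, stayed near or below the filter level on every array. The brighter of its probe sets had signals of 62.3, 16.2 and 48 on controls and 40.8, 45 and 40.6 after 8-Br-cAMP. The groups overlapped, and the log2 difference of 0.21 turned negative (-0.38) without control 2. The other probe set read 4.2 on each control and 4.9, 1.5 and 2.2 after 8-Br-cAMP, all far below the filter level. The atypical CXCL12 receptor ACKR3 was as dim, with signals of 0.8 to 17 on controls and 2.1 to 7.1 after 8-Br-cAMP.

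CCL22 has a single probe set. Its signals were 340, 12 and 5.9 on controls 1, 2 and 3 and 4018.6, 598.1 and 605.1 after 8-Br-cAMP. All treated arrays lay above all controls, and the number 1 array was by far the brightest in each group. The group means were 4.85 ± 3.12 and 10.15 ± 1.58 in log2 signal (SD, n = 3), a difference of 5.29, with 3.56, 5.64 and 6.68 in the 3 pairs. On controls 2 and 3 the signal was below the filter level, so folds against them are imprecise. With signals floored at 13.5 or a pseudocount of 16 the mean difference of CCL22 was smaller, and 4.26 was the least over the scalings and low-signal settings tried.

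In the order of protein-coding genes on GRCh38.p14, CCL22 is followed directly by the chemokine genes CX3CL1 and CCL17. CCL17, like CCL22 a ligand of CCR4, had signals of 14.3, 34.4 and 9.4 on controls and 34.1, 11.6 and 15.7 after 8-Br-cAMP. CX3CL1, a membrane-bound chemokine, had 72.5, 67.8 and 32 on controls and 64.4, 25.2 and 24.2 after 8-Br-cAMP. Both overlapped between groups and neither was kept by the filter. The receptor CCR4 stayed between 4.8 and 12 on all arrays.

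IL7R, which encodes the receptor chain that binds interleukin 7, had the largest mean log2 difference of the 9 genes in the deposited signals. CCL22 was ahead of it in pair 1 and without control 1 (7.07 against 6.72), and CXCR4 with the pseudocount. CCL22 was also slightly ahead without 8-Br-cAMP 2 (5.76 against 5.70) and without 8-Br-cAMP 3 (5.75 against 5.64). The single IL7R probe set gave 49.1, 13.6 and 5.1 on controls and 504.9, 1121.1 and 1204.2 after 8-Br-cAMP. Every treated signal was at least 10.3 times that of its same-numbered control and above all controls, and here 8-Br-cAMP 1 was the dimmest treated array. The means were 3.91 ± 1.64 and 9.78 ± 0.70 in log2 signal (SD, n = 3), a difference of 5.87, with 3.36, 6.37 and 7.88 in the pairs. Control signals lay near or below the filter level, and the difference came to 4.71 in the setting that reduced it most. Of the partners of IL7R, the common cytokine receptor chain IL2RG overlapped between groups (log2 difference -0.06). CRLF2, the other chain that IL7R can pair with, read 4.5 to 18.2 on controls and 6.8 to 24.7 after 8-Br-cAMP, and the ligand gene IL7 read 0.4 to 3.4 over all arrays.

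**Figure D2:**
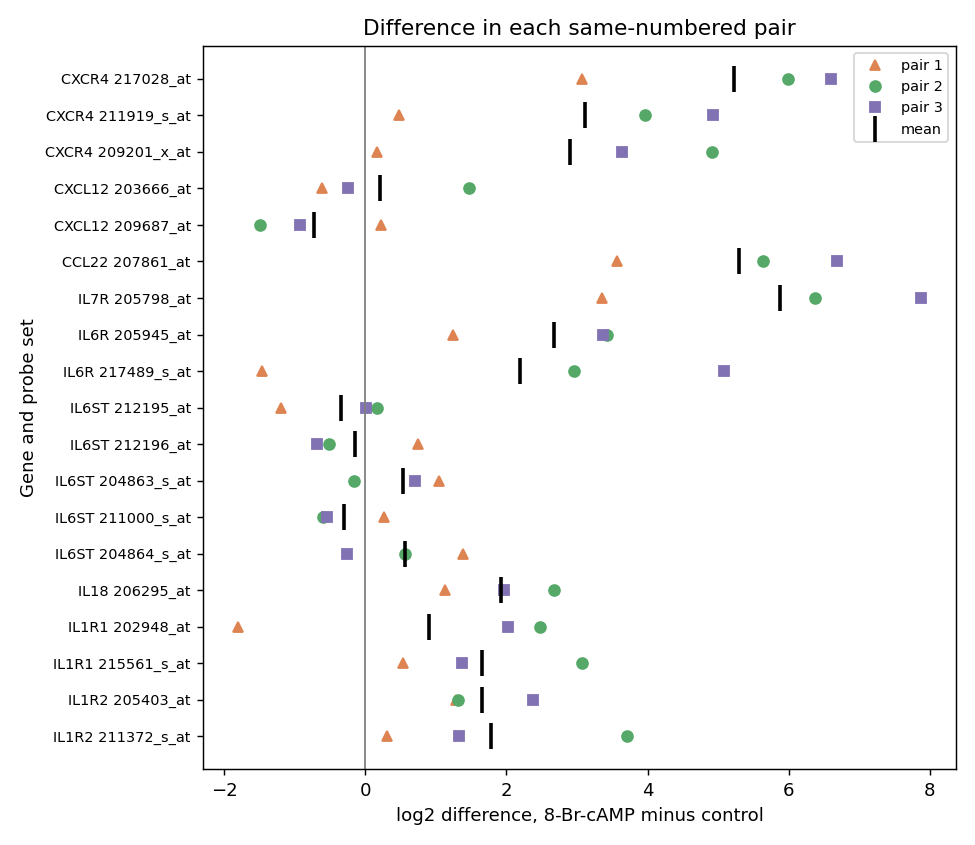
Log2 difference between 8-Br-cAMP and control in each same-numbered pair, for the 19 probe sets, with a black tick at the mean. The points of CXCR4, CCL22 and IL7R lie to the right of 0 in every pair. Pair 1 (triangles) lies farthest to the left in the brightest probe set of each of the 9 genes. It lies farthest to the right in the other IL6ST probe sets and the dimmer CXCL12 one.

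IL6R and IL6ST form the receptor for interleukin 6, in which IL6R binds the cytokine and IL6ST, also called gp130, carries the signal for the whole cytokine family. The brighter IL6R probe set had signals of 781.7, 114 and 112.9 on controls and 1841.9, 1232.7 and 1167 after 8-Br-cAMP. The groups did not overlap, and control 1 came closest to the treated arrays. The log2 means were 7.75 ± 1.61 and 10.43 ± 0.36 (SD, n = 3), a difference of 2.68 or 6.41-fold, with 1.24, 3.43 and 3.37 in the pairs. The other IL6R probe set was not kept. It read 23.6, 16.4 and 2.4 on controls and 8.5, 127.3 and 81.6 after 8-Br-cAMP, so it was lower in pair 1 (-1.47) and higher in pairs 2 and 3.

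The signalling chain IL6ST gave no common direction over its 5 probe sets. The brightest read 1079.5, 828.3 and 903 on controls and 472.3, 927.7 and 910.7 after 8-Br-cAMP. Arrays 2 and 3 of both groups were alike, and only 8-Br-cAMP 1 was low. The log2 difference was -0.34 over all arrays and 0.09 with both number 1 arrays left out. The next read 80.4, 303.5 and 269.4 on controls and 134.8, 211.6 and 168.4 after 8-Br-cAMP, with control 1 the lowest of the 6. The mean log2 differences of the other 3 probe sets were 0.53, -0.30 and, for the one that was not kept, 0.56, and all 5 overlapped between groups. The cytokine gene IL6 itself read 25.8 to 47.8 on controls and 42 to 50.6 after 8-Br-cAMP.

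IL18 encodes a cytokine of the interleukin 1 family that is made as a precursor and cut by caspase 1. Its single probe set read 284, 117.9 and 191.9 on controls and 620.1, 755.2 and 746.3 after 8-Br-cAMP. The treated signals were close to each other and all above the controls. The log2 means were 7.54 ± 0.64 and 9.46 ± 0.16 (SD, n = 3), a difference of 1.92 or 3.79-fold, with 1.13, 2.68 and 1.96 in the pairs. CASP1 had a log2 difference of -0.12 and the receptor chain IL18R1 read 1.9 to 9 over all arrays. The antagonist gene IL18BP read 12.7 to 49.6 on controls and 12.9 to 32.4 after 8-Br-cAMP.

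IL1R1 is the signalling receptor for interleukin 1, and IL1R2 is a decoy that binds the cytokine without passing a signal. The brighter IL1R1 probe set read 1251.5, 126.6 and 177.3 on controls and 358.1, 708.6 and 718.7 after 8-Br-cAMP. Control 1 was the highest of all 6 arrays, so the groups overlapped, and the pairs differed in sign at -1.81, 2.48 and 2.02. The mean log2 difference was 0.90 over all arrays and 2.25 with both number 1 arrays left out. The dim IL1R1 probe set, not kept, read 37, 5.2 and 18.8 on controls and 53.8, 43.8 and 48.5 after 8-Br-cAMP, with no overlap.

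The brighter IL1R2 probe set read 214.6, 55.2 and 29.3 on controls and 526.2, 136.7 and 152.7 after 8-Br-cAMP. The groups overlapped through control 1, but each treated array lay above its same-numbered control, by 1.29, 1.31 and 2.38 on the log2 scale. The other IL1R2 probe set read 123.5, 7.2 and 30.4 on controls and 152.4, 94.1 and 76.4 after 8-Br-cAMP. It had pair differences of 0.30, 3.71 and 1.33. Pair 1 thus gave IL1R1 and IL1R2 opposite signs in their brighter probe sets, and pairs 2 and 3 gave both a positive sign. The 2 genes are neighbours on chromosome 2, followed there by IL1RL2, IL1RL1, IL18R1 and IL18RAP. Of these 4 genes only IL1RL1, the receptor for interleukin 33, was kept. It read 40.2, 59.9 and 34.6 on controls and 7.1, 251.7 and 287.8 after 8-Br-cAMP, and it too had opposite signs in pair 1 (-2.50) and in pairs 2 and 3 (2.07 and 3.06). It did not pass in limma with the replicate block (adjusted p = 0.663, 5.86e-04 to 0.997 over the settings).

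The number 1 arrays differed from the others in many of these values. Control 1 was the brightest control in 16 of the 19 probe sets, against 38.7% of all kept probe sets. 8-Br-cAMP 1 was the brightest treated array in 10 of 19, close to the 49.6% of all kept ones. Its log2 signal differed from the mean of the other treated arrays by 2.74 in CCL22 but by -1.20 in IL7R. In the brightest probe set of each gene the signed difference was lowest in pair 1, 9 of 9, against 37.0% of kept probe sets. This did not hold for all probe sets, since pair 1 was highest in the other IL6ST probe sets and the dimmer CXCL12 one. The percentages cover kept probe sets only, while the 19 include 5 that were not kept and the 9 include the brighter CXCL12 one, also not kept. The genes were also chosen on this contrast, so nothing is read from these shares. Whether RNA integrity, culture or another property of these arrays lies behind this was not tested.

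Calls of the fits across all probe sets are given for completeness, and nothing is read from them for genes chosen on this contrast. Without a block, limma called 0 of 13329 probe sets (0%) at an adjusted p under 0.05, and so 0 of the 14 kept member probe sets, with 1474 of all at an unadjusted p under 0.05. With a replicate block on sample number it called 3.21% of all probe sets and 6 of the 14, 1 each in CXCR4, CCL22, IL7R, IL6R, IL18 and IL1R2. With both number 1 arrays left out it called 30.8% of all and 11 of the 14. The series' design text selects changes of 2-fold or more that reach p under 0.05 without adjustment. In limma without the block that took 6.60% of all probe sets and 7 of the 14, and 2.50% of all and the same 7 when only higher signals are counted. Of the kept probe sets 3 were at least 8-fold higher in every pair, 1 each of CXCR4, CCL22 and IL7R, against 0.0750% of all kept ones. The median log2 difference was 1.85 over the 14 kept probe sets and 1.66 over all 19, against -0.13 and -0.15 over all kept and all analysed probe sets. CCL22, IL7R and the dimmer IL1R2 probe set, 3 of the 14, had control means below the filter level and passed it through their treated arrays, so these medians and counts are not a measure of all members.

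**Figure D3:**
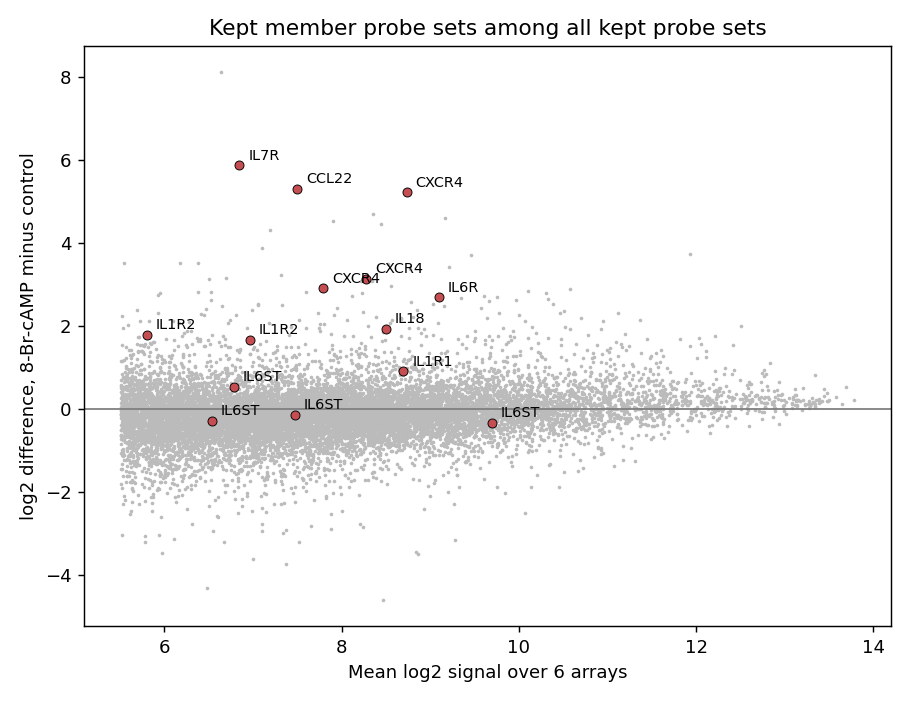
Log2 difference against mean log2 signal for all 13329 kept probe sets (grey) and the 14 kept probe sets of the 9 genes (red, with gene symbols). IL7R, CCL22 and 1 CXCR4 probe set stand at the upper edge, between 5.22 and 5.87, while the IL6ST probe sets lie within the bulk.

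Among the other genes of these pathways the calls depended on the fit. Of 229 listed genes, 204 were on the array with a symbol of their own and 98 were kept by the filter. With the replicate block limma called 2 of the 98 (2.04%), both lower, against 3.68% of all 7927 genes with a kept probe set. Without the block it called 0, with 8 at an unadjusted p under 0.05, against 1474 of all 13329 kept probe sets. With both number 1 arrays left out 16 were higher and 18 lower, or 34.7%, against 33.3% of all genes. The median log2 difference of the 98 genes was -0.15, and that of all genes -0.14. Nothing in the labels tells whether plates were independent cultures, and p-values here cover only the spread among these arrays, possibly technical.

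Chemokine receptors other than CXCR4 were at low signal. Of the 20 on the array, none was kept by the filter. Of 30 other chemokine ligands on the array 4 were kept, and with the replicate block none was called. XCL1, a chemokine of activated T cells, read 116.4, 214.6 and 129.3 on controls and 9.6, 88.7 and 66.3 after 8-Br-cAMP, with no overlap between groups (log2 difference -1.95, adjusted p = 0.114 in limma with the replicate block, 0.0251 to 0.918 over the settings). CXCL8, which attracts neutrophils, read 103.8, 760.5 and 771.6 on controls and 119.8, 1364.9 and 1592.1 after 8-Br-cAMP. It was dim on both number 1 arrays, where most of the 9 genes were bright in controls, and its log2 difference of 0.70 had an adjusted p of 0.162 in limma with the replicate block (7.85e-04 to 0.997 over the settings).

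Of 21 kept genes of CXCR4 signalling and trafficking, limma with the replicate block called 0, with 2 at an unadjusted p under 0.05. Over all 13329 kept probe sets, 2839 reached that unadjusted p in the same limma fit. HGS, a subunit of the sorting complex that sends ubiquitinated receptors to lysosomes, read 367.6, 309.1 and 304.3 on controls and 590.7, 484.3 and 442.5 after 8-Br-cAMP, without overlap (log2 difference 0.62, adjusted p = 0.141 in limma with the block, 0.0113 to 0.885 over the settings). PTK2B, a kinase related to focal adhesion kinase, differed by -1.13 (adjusted p = 0.167 with the block in limma, 0.0880 to 0.943 over the settings), with a negative sign in all 3 pairs.

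Of 22 other kept cytokine receptor genes 1 was called, GHR, the growth hormone receptor, which signals through JAK2. GHR read 386.3, 152.5 and 163.2 on controls and 113.9, 54.8 and 69.9 after 8-Br-cAMP. The groups did not overlap, and the pairs differed by -1.76, -1.48 and -1.22. The log2 difference was -1.49 (SE 0.25, 95% interval -2.09 to -0.88, adjusted p = 0.0372 in limma with the replicate block). The call was not made by limma without the block (adjusted p = 0.291), nor with the block after quantile normalization (0.0720) or with a common median (0.0896). Over all settings the adjusted p ran from 0.00524 to 0.709. IL1RAP, the co-receptor that IL1R1 needs for its signal, differed by -1.61 (95% interval -2.96 to -0.27) and did not pass (adjusted p = 0.171 in limma with the replicate block, 0.122 to 0.900 over the settings). OSMR and LIFR, which pair with IL6ST, differed by 1.00 and -0.34 and did not pass either (adjusted p = 0.260 and 0.654 in the same limma fit, 4.39e-04 to 0.927 and 0.654 to 0.997 over the settings). OSMR differed by -0.40, 1.70 and 1.72 in the pairs, and without both number 1 arrays it passed in limma (adjusted p = 4.39e-04).

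Of 4 kept interleukin genes and of 23 JAK, STAT and SOCS genes, limma with the replicate block called none, with 0 and 2 at an unadjusted p under 0.05. That compares with 2839 of all 13329 kept probe sets in this limma fit. IL1A, a ligand of IL1R1, differed by -0.36 and the macrophage growth factor CSF1 by -0.45 (adjusted p = 0.520 and 0.668 in that limma fit, and no lower than 0.326 and 0.0506 in any setting). CISH, an inhibitor of cytokine receptor signalling that STAT5 induces, read 99.3, 13.5 and 28.4 on controls and 183.7, 80.6 and 72.1 after 8-Br-cAMP, higher in each pair but overlapping between groups (1.60, adjusted p = 0.110 with the block in limma, 0.0297 to 0.962 over the settings). PTPN6, a phosphatase that dampens cytokine receptors, differed by -0.87 (adjusted p = 0.138 in the same limma fit, 0.0157 to 0.915 over the settings). SOCS3, the feedback inhibitor of IL6ST, differed by -0.02 (95% interval -0.90 to 0.86).

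Of 24 kept genes of interleukin 1 and interleukin 18 signalling 1 was called, IKBKB, the kinase that marks the NF-kB inhibitors for breakdown. IKBKB read 339.8, 520.5 and 636.5 on controls and 154.9, 277.4 and 282.1 after 8-Br-cAMP. The groups did not overlap, and the pairs were close at -1.13, -0.91 and -1.17. The log2 difference was -1.07 (SE 0.20, 95% interval -1.56 to -0.59, adjusted p = 0.0474 in limma with the replicate block). It did not pass in limma without the block (adjusted p = 0.331), nor with the block after quantile normalization (0.0662) or with a common median (0.135), and the adjusted p ran from 0.00142 to 0.828 over the settings. Its other kept probe set differed by -0.84. TNFAIP3, an inhibitor of NF-kB that NF-kB induces, was chosen after its values were seen. It read 1146.8, 1353.7 and 1281.4 on controls and 1850.7, 2016.1 and 2133.4 after 8-Br-cAMP, with no overlap and little spread, and did not pass (0.67, adjusted p = 0.0957 with the block in limma, 0.00234 to 0.775 over the settings).

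**Figure D4:**
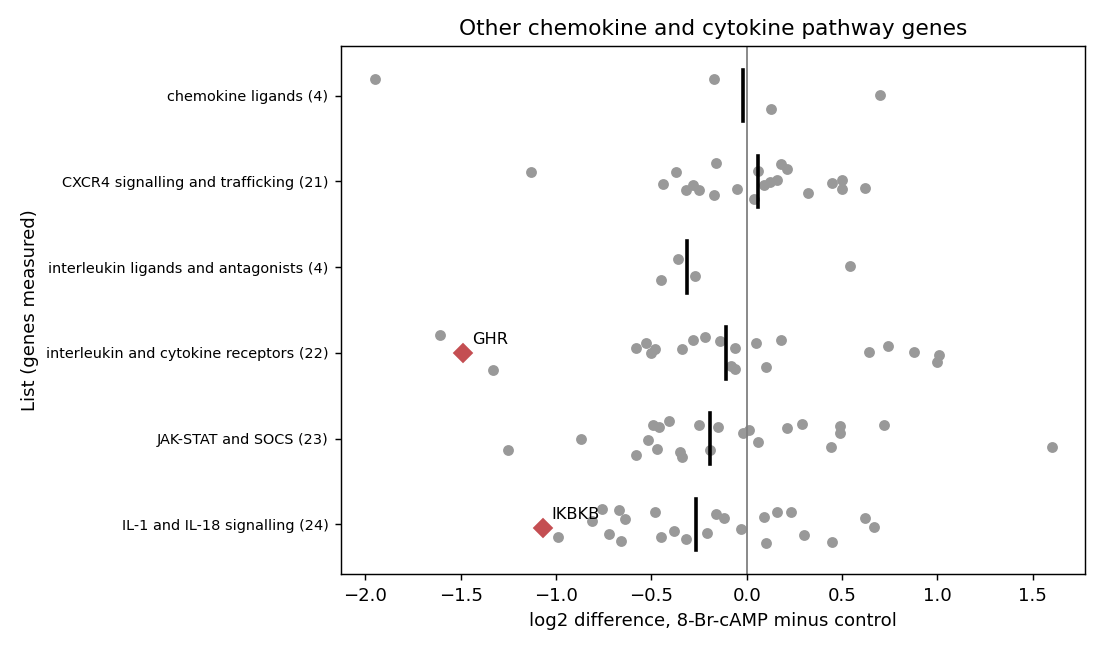
Log2 difference between 8-Br-cAMP and control for the 98 kept genes of the pathway lists, 1 point per gene, with a black bar at each list's median and red diamonds for genes called with the replicate block. GHR (-1.49) and IKBKB (-1.07) are the 2 genes called, and points otherwise lie on both sides of 0. The chemokine receptor list has no kept gene and is not drawn.

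The genes whose log2 signals followed CXCR4 most closely over the 6 arrays were JADE1 (Pearson r 0.9995), EPB41L1 (0.9968), SEC61A1 (0.9967), QSOX1 (0.9952) and STT3A (0.9950), among 7919 genes compared, of which 82 had an r over 0.95. SEC61A1 is a subunit of the channel into the endoplasmic reticulum and STT3A a subunit of the enzyme that attaches sugars there. Likeness of pattern was not likeness of size, since JADE1 differed by 0.64 and EPB41L1 by 2.16 against 5.22 for CXCR4. CCL22 was followed most closely by TMED9, CD83, MT1X, UBE2S and LY6E, with r between 0.9954 and 0.9979, and 95 genes had an r over 0.95. CD83, a surface protein known from mature dendritic cells, read 1459.5, 422.3 and 373.1 on controls and 2934.7, 1582.3 and 1661.5 after 8-Br-cAMP. In both sets the points share the 2 groups and the split between number 1 and the other arrays, so the correlations describe these 6 arrays alone.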

How the data were processed

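RNA of 6 NCI-H295A plates was hybridised to Affymetrix expression arrays. The deposited table gives each probe set an unlogged intensity on each array, which the authors computed with GCOS 1.3 per the labels' protocols and the submitters' processing notes. Trimmed means of the columns lay within 249.996 and 250.155, so the intensities were used as deposited. Such scaling hides a shift shared by most transcripts. The precision is limited by the number of arrays.

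The table holds 22277 probe sets, 62 of them array controls. GEO's platform annotation gives a single symbol for 19064, several for 1043 and no entry for 2108, and 0 symbols changed on matching gene IDs to RefSeq.

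Differences were fitted on log2 intensities with limma 3.58.1 in R 4.3.3 (lmFit, eBayes with trend, two-sided, Benjamini-Hochberg over the 13329 kept probe sets, threshold 0.05), without a block as the main design and with a replicate block on sample number. Deviations of same-numbered arrays correlated at 0.603, 0.378 and 0.538, above the minimum of 0.1 set for using the block. This check cannot establish pairing, because number 1 arrays that stand apart in both groups can make all such correlations positive. Over kept probe sets control 1 correlated at 0.883 with 8-Br-cAMP 1 and at 0.813 and 0.819 with 8-Br-cAMP 2 and 3. Control 2 correlated at 0.885 and 0.884 with 8-Br-cAMP 2 and 3, and control 3 at 0.904 and 0.904. Pairing by number is thus an assumption of the blocked fit, and the labels do not state it. The blocked fit is the one printed for pathway genes because it changes their calls, a choice that rests on its result. The main fit called 0 of them, as did the blocked fit after quantile normalization or with a common median. The fits were also run on simulated data with sample-number effects built in and equal noise on all arrays. That run therefore cannot speak to pairing or to the number 1 arrays.

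The members, the 7 pathway lists with 229 genes, the marker lists and the tests were chosen with earlier results of these data known. The pathway rule named up to 4 called genes per list or, where none was called, the 2 with the smallest unadjusted p, and the 5 genes most like CXCR4 and CCL22, using 1 probe set per gene, the brightest kept one. Partners of the members were named for their known role after values were seen. Promoters are from RefSeq on GRCh38.p14. The IL7R promoter was added, and those of IL1R1 and IL1R2 were searched but not printed.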

Additional observations from a re-analysis of the deposited data

How the results depend on the processing

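Without a block limma called 0 of all kept probe sets, and this count depended on the setting. It was 428 with the replicate block, 17 after quantile normalization, 17 with a common median, 18 with the stricter filter at the 60th percentile, 28 with the floor, 28 with the pseudocount of 16 and 880 by the 2-fold selection. Without an intensity trend, with robust variances and without any filter it stayed at 0. Leaving out 1 array gave 0 to 285, with 58 without control 1 and 285 without 8-Br-cAMP 1, and leaving out both number 1 arrays gave 4103. The replicate block gave 337 calls with quantile normalization and 142 (103 higher, 39 lower, against 207 and 221) with a common median, both chosen after seeing the data. Over kept probe sets the median change in log2 signal was -0.13 as deposited, -0.03 after quantile normalization and 0.09 with a common median.

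Of the 98 pathway genes 0 were called without a block, 2 with the replicate block, 34 without both number 1 arrays and 4 by the 2-fold selection, and 0 to 3 with 1 array left out (3 without 8-Br-cAMP 1).

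The log2 differences of 14 of the 19 probe sets of the 9 genes kept their sign under all 11 alternatives, and 15 to 16 of the 19 were higher after 8-Br-cAMP in each. The other 5, both of CXCL12 and 3 of IL6ST, changed sign or, for the dimmer of CXCL12, reached 0. With 1 array left out the brightest CXCR4 probe set ran from 4.43 to 6.48 and CCL22 from 4.15 to 7.07. Without both number 1 arrays the difference moved by more than the replicate spread to 4.45 and 4.27 in the other CXCR4 probe sets, to 2.25 in the brighter one of IL1R1 and to 0.09 in the brightest of IL6ST. The dimmer CXCL12 probe set moved to 0.00 with the floor and -0.10 with the pseudocount. Low signals limit the precision of folds against controls 2 and 3. The causes were not tested.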
